A study of Rattus norvegicus with 3 samples.

Results

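Bone morphogenetic protein (BMP) and transforming growth factor beta (TGF-beta) signalling was followed by its genes through 3 stages of enamel formation in the rat. Members were chosen by symbol: BMP, GDF, TGF-beta and activin ligands, their receptors, Smads, Smurfs, antagonists, latent TGF-beta binding proteins and Id genes. The symbol rule found 63 genes among the 16516 genes with deposited results; other genes of the pathway were read from a separate list. The stages were the cervical loop, where ameloblasts arise, the secretory stage, where they lay down enamel matrix, and the maturation stage, where enamel hardens. Cells were dissected from enamel organs of Wistar Hannover rats with no treatment or altered gene named in the labels, which give neither age nor sex. Per the labels, mRNA from 5 rats was sequenced, and 1 cervical loop library was left out for its RNA integrity. Each stage was given as 1 mean per gene, called the authors' mean below. Its unit is not stated, so levels are compared across stages and genes are not ranked by level. Sums over marker sets and cutoffs on low means do put genes on 1 scale, and an abundant gene can decide a sum. No standard deviation could be computed, and replicate error can enter only through the p-values and false discovery rates (FDR) of the authors' deposited table. A gene passed in a pair of stages at FDR under 0.05, with its direction read from the means.

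Ligands of this superfamily are secreted dimers that bring together type I and type II receptor kinases. BMP receptors phosphorylate Smad1, Smad5 and Smad9, while TGF-beta and activin receptors phosphorylate Smad2 and Smad3. Both kinds then pair with Smad4 and act on genes in the nucleus. Smad6 and Smad7 inhibit the pathway, and extracellular antagonists such as noggin and gremlin trap ligands before they bind. In the tooth these signals pass between epithelium and mesenchyme, and in mice BMPs are needed for ameloblasts to differentiate while follistatin keeps the lingual side of the incisor free of enamel.

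The stage labels were checked on marker genes. The 4 secretory markers (Amelx, Ambn, Enam and Mmp20) had summed means of 2920, 112877 and 5621 in cervical loop, secretory and maturation cells. The 5 maturation markers (Klk4, Amtn, Odam, Wdr72 and Slc24a4) summed to 83.8, 554 and 5570, and 4 genes of dividing cells (Mki67, Top2a, Ccnb1 and Cdk1) to 545, 71.5 and 66.2. Each set was highest in the stage it marks. Genes of other cells were measured in each stage. The 9 mesenchyme markers summed to 9819, 10391 and 14003, 7 odontoblast and bone markers to 1123, 516 and 757, 6 endothelial markers to 107, 141 and 211, and 7 myeloid markers to 229, 189 and 671. The 5 epithelial markers summed to 999, 1429 and 3054, 4 stratum intermedium markers to 271, 425 and 604, and 8 muscle and pericyte markers to 139, 108 and 202. The sum of these 8 hides wide differences between genes. For maturation against secretory cells their log2 ratios ran from -1.32 to 5.03 with a median of 3.21. Of the 8, 1 passed as higher and 1 as lower. Means up to 0.1 count as a floor; Dspp in maturation and Mb in cervical loop cells were the markers at it. In such mixed tissue, fewer cells of a type and less RNA per cell cannot be told apart.

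Across the 3 stages 51 of the 63 members passed the authors' overall test, against 67.2% of all genes, and 12 members passed in no pair. For secretory against cervical loop cells, 22 members were higher (34.9%) and 15 lower (23.8%), beside 16.5% and 25.2% of all genes, or 41.8% in either direction. For maturation against secretory cells, 10 were higher (15.9%) and 15 lower (23.8%), beside 21.8% and 21.1% of all genes, or 42.9% in either direction. For maturation against cervical loop cells, 21 were higher (33.3%) and 20 lower (31.7%), beside 24.1% and 33.7% of all genes, or 57.8% in either direction. The share higher in secretory than in cervical loop cells lay furthest above its background, and the other shares lay nearer to theirs. Median log2 ratios of members were 0.07, -0.11 and -0.03 in the same 3 pairs, beside medians over all genes of -0.14, 0.01 and -0.12. The pairs share stages, so these counts are not independent of one another. Scaling without the 10 largest genes moved log2 ratios down by 0.13, 0.01 and 0.14, so ratios against the cervical loop are relative to that shift. No member that passed changed direction under it, since the shift was smaller than every log2 ratio of those members.

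**Figure D1:**
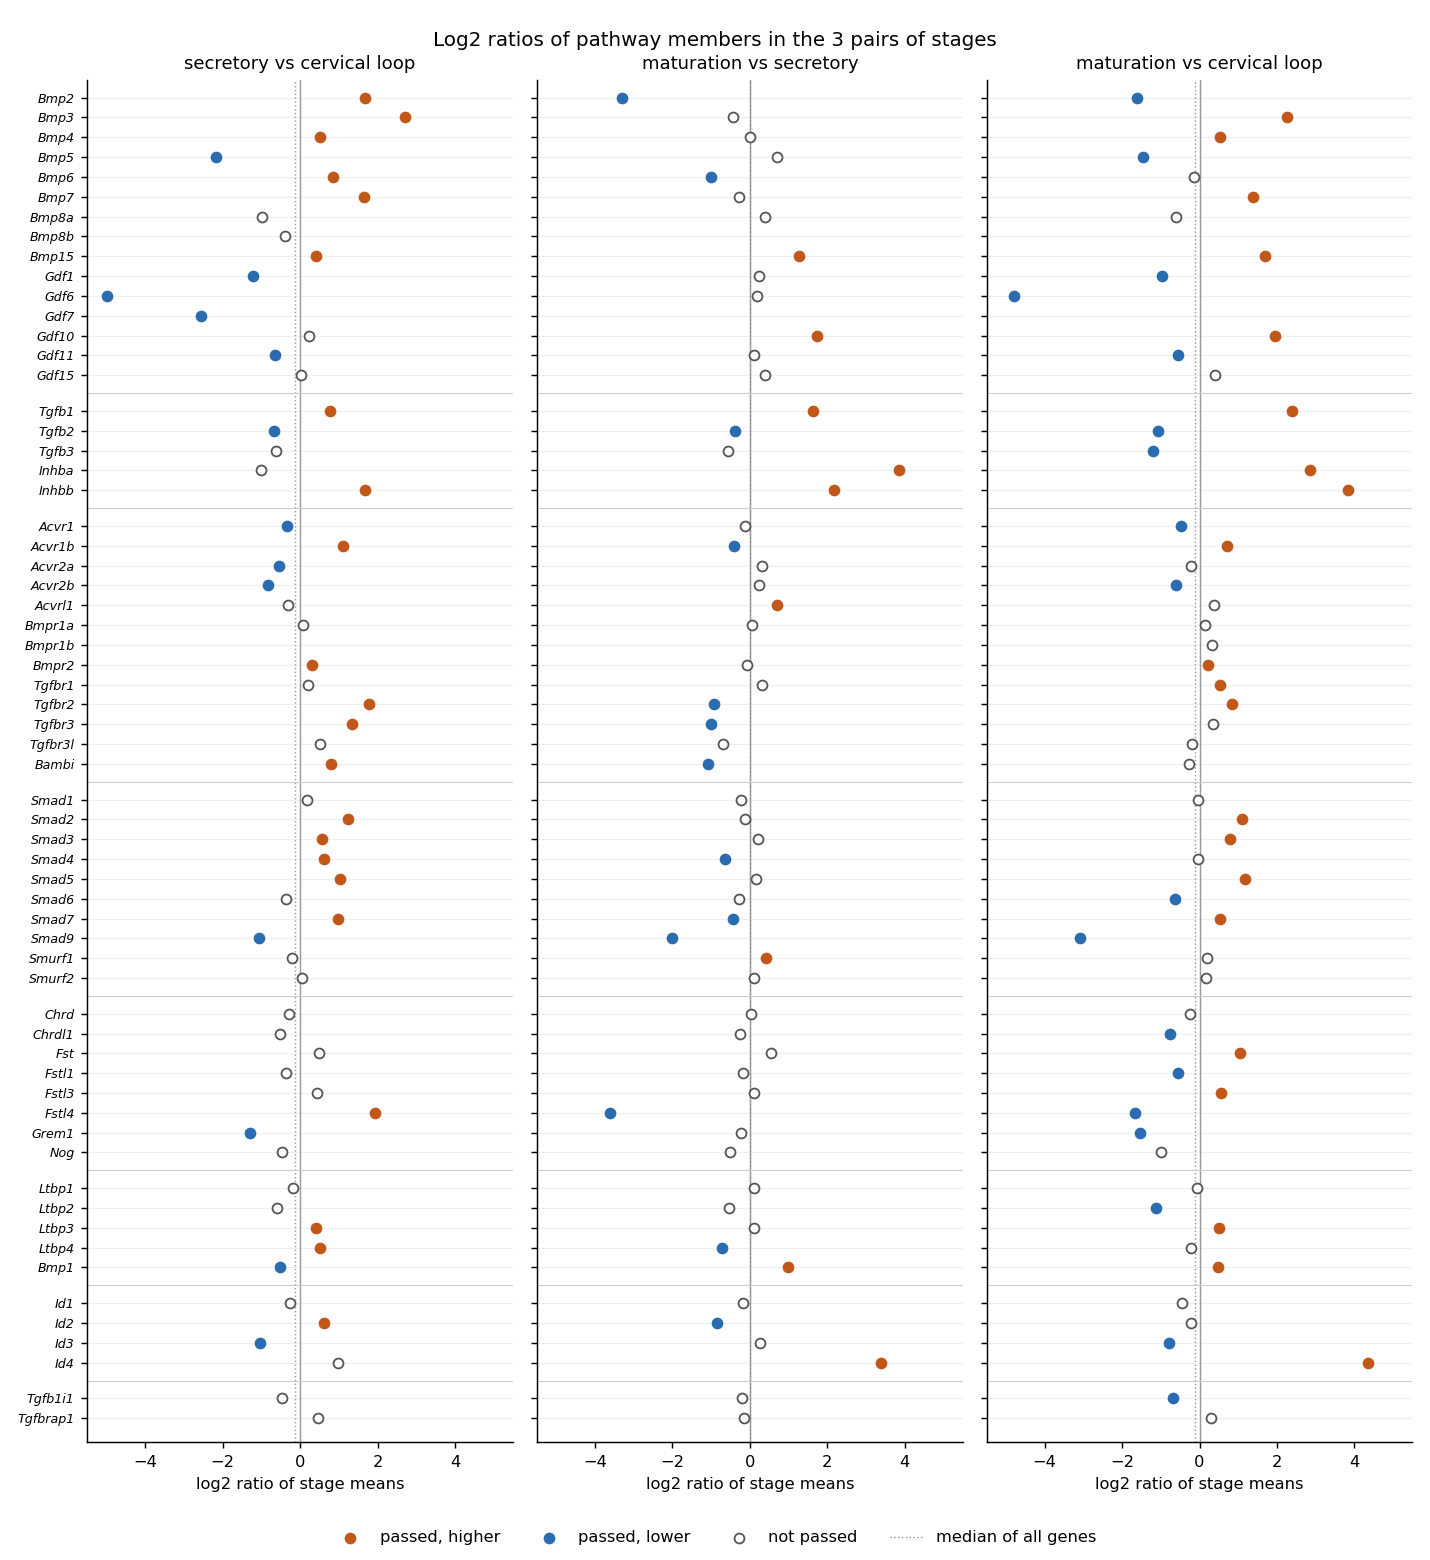
Log2 ratios of the stage means (x axis) for members (y axis), grouped by role from ligands at the top to 2 genes placed in no role at the bottom, in 3 pairs of stages. Filled points passed at FDR under 0.05 (orange higher, blue lower), open points did not, the dotted line is the median of all genes, and pairs with a mean of 0.1 or less have no point. Inhba, Inhbb, Tgfb1 and Id4 stand far to the right for maturation, and Gdf6 and Smad9 far to the left against the cervical loop.

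BMP ligand genes differed in the stage where they were highest. Of 15 BMP and GDF genes, 6 were higher and 5 lower in secretory than in cervical loop cells, 2 were higher and 3 lower in maturation than in secretory cells, and 5 were higher and 6 lower in maturation than in cervical loop cells. The shares were 40.0% and 33.3%, 13.3% and 20.0%, and 33.3% and 40.0%. Over all genes they were 16.5% and 25.2%, 21.8% and 21.1%, and 24.1% and 33.7%. These background shares also hold for the role counts below, which rest on few genes each. The 2 genes higher in maturation than in secretory cells were Bmp15 and Gdf10. They and Gdf7, 1 of the 3 lower, had means under 5 in every stage. Bmp2, a ligand of bone and tooth, had means of 16.7, 53.6 and 5.45 in cervical loop, secretory and maturation cells. It was highest in the secretory stage, 3.21-fold above the cervical loop (FDR = 0.00577 in the authors' deposited table). In maturation it was 9.84-fold lower than in secretory cells and 3.06-fold lower than in the cervical loop (FDR = 0.000638 and 0.00788 in the authors' deposited table).

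Bmp3 and Bmp7 were higher in both ameloblast stages than in the cervical loop. Bmp3, a divergent BMP that opposes other BMPs in bone, had means of 21.6, 141 and 103. It was 6.53-fold higher in secretory and 4.8-fold higher in maturation than in cervical loop cells (FDR = 0.00141 and 0.00117 in the authors' deposited table). Bmp7 had means of 28.7, 90.0 and 74.2, which were 3.14-fold and 2.59-fold higher in the same pairs (FDR = 0.000541 and 0.000304 in the authors' deposited table). Neither passed between the ameloblast stages (FDR = 0.281 for Bmp3 and 0.107 for Bmp7 in the authors' deposited table). Bmp4, an epithelial and mesenchymal signal of tooth development, had means of 42.1, 60.5 and 60.8. Its step above the cervical loop was smaller, 1.44-fold in each ameloblast stage (FDR = 0.00198 in secretory and 0.000847 in maturation cells in the authors' deposited table). Bmp6 peaked in the secretory stage at a low level, with means of 3.27, 5.94 and 2.97.

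Gdf6, Gdf11 and Bmp5 were highest in the cervical loop. Gdf6, a ligand of joint and skull development, had means of 8.31, 0.263 and 0.298. It was 31.6-fold lower in secretory and 27.9-fold lower in maturation than in cervical loop cells (FDR = 0.00242 and 0.0019 in the authors' deposited table). With 1 added to both means its log2 ratios shrank to -2.88 and -2.84, since the ameloblast means are low. Bmp5 followed the same order, with means of 6.12, 1.37 and 2.21, 4.48-fold lower in secretory than in cervical loop cells (FDR = 0.00333 in the authors' deposited table). Gdf11, an activin-type ligand that patterns the embryonic axis, had means of 13.9, 8.84 and 9.44, which were 1.57-fold and 1.47-fold lower than in the cervical loop (FDR = 0.0143 and 0.0158 in the authors' deposited table). Bmp8a, at 6.69, 3.36 and 4.39, passed in no pair; reads of Bmp8a and its close copy Bmp8b may be split between them by the counting. Beside the lower values of Gdf6 and Bmp5, the summed odontoblast and bone markers were also lower in ameloblast stages than in the cervical loop. Of these markers 0 of 7 passed for secretory and 2 of 7 for maturation cells, and summed mesenchyme markers were lowest in the cervical loop. The part of either set in these results was not tested.

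Activin subunits and Tgfb1 were highest in maturation. Of 5 TGF-beta and activin ligand genes, 2 were higher and 1 lower in secretory than in cervical loop cells, 3 were higher and 1 lower in maturation than in secretory cells, and 3 were higher and 2 lower in maturation than in cervical loop cells. Inhba encodes the subunit of activin A, and its means were 11.6, 5.78 and 83.7. Maturation cells stood 14.5-fold above secretory and 7.2-fold above cervical loop cells (FDR = 0.000489 and 0.000679 in the authors' deposited table). Inhbb, the activin B subunit, had means of 1.93, 6.11 and 27.4, so it was higher at each later stage. It stood 4.49-fold above secretory cells in maturation and was 3.17-fold higher in secretory than in cervical loop cells (FDR = 0.000663 and 0.00203 in the authors' deposited table). Maturation against cervical loop gave 14.2-fold for Inhbb (FDR = 8.38e-05 in the authors' deposited table). Inha, the alpha subunit that turns activins into inhibins, went the other way, with means of 2.83, 2.09 and 0.668 (FDR = 0.000689 for maturation against secretory cells in the authors' deposited table).

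The 3 TGF-beta genes did not move together. Tgfb1 had means of 32.9, 56.3 and 173. It stood 3.08-fold above secretory cells in maturation and was 1.71-fold higher in secretory than in cervical loop cells (FDR = 0.00122 and 0.02 in the authors' deposited table). Tgfb2, at 63.4, 39.6 and 30.4, was 1.6-fold lower in secretory than in cervical loop cells and 1.3-fold lower in maturation than in secretory cells (FDR = 0.00814 and 0.0452 in the authors' deposited table). Tgfb3, at 25.7, 16.6 and 11.3, passed only for maturation against cervical loop, 2.28-fold lower (FDR = 0.00319 in the authors' deposited table). Tgfb1 was thus highest and Tgfb2 lowest in maturation. Many leukocytes make Tgfb1, and 6 of 7 myeloid markers were higher in maturation than in secretory cells; their part in the Tgfb1 result was not tested.

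**Figure D2:**
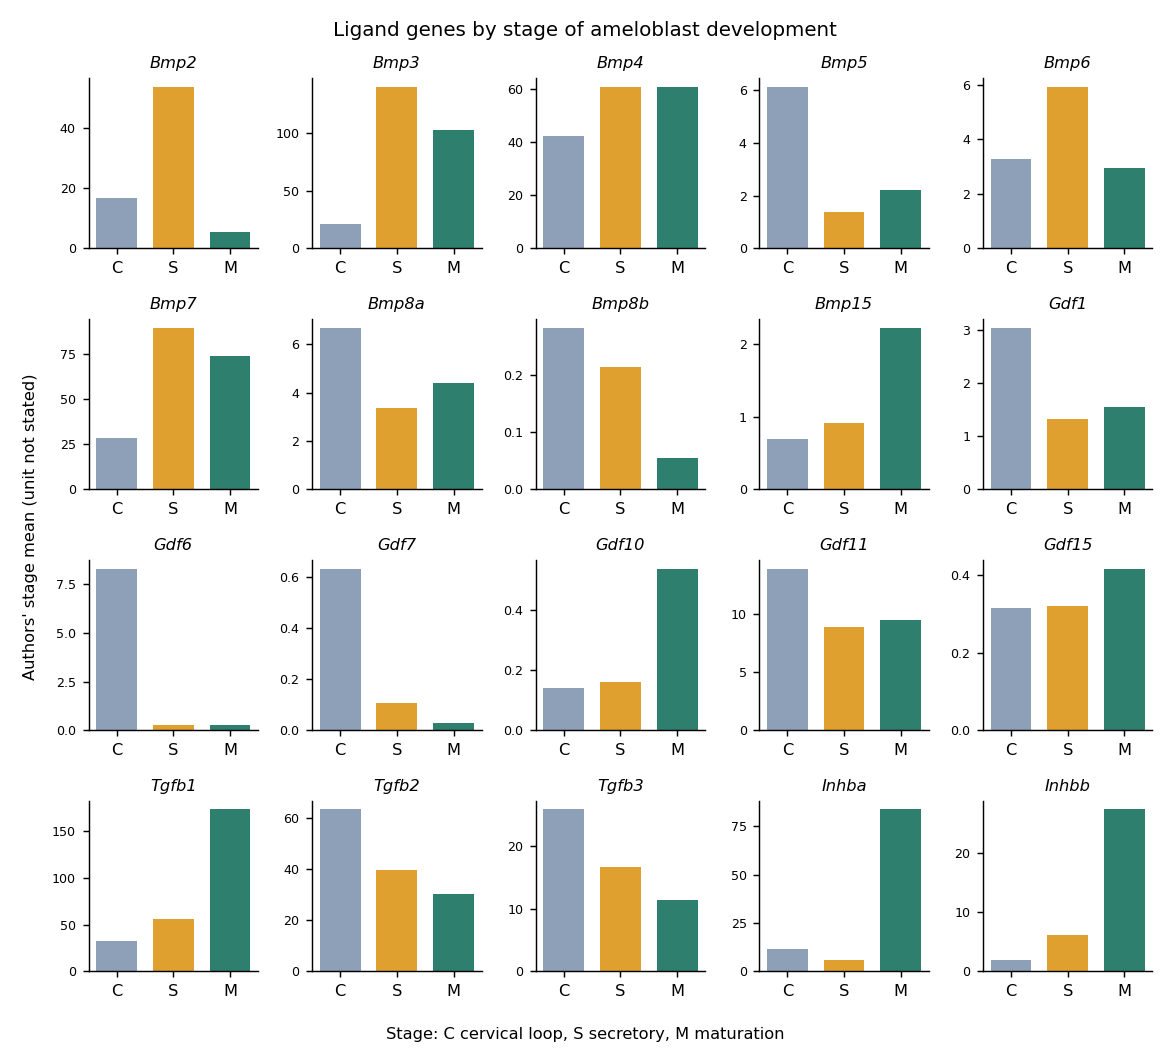
Authors' means (y axis, unit not stated, each panel on its own scale from 0) of 20 ligand genes in cervical loop (C), secretory (S) and maturation (M) cells. Bmp2 peaks in S, Gdf6 is high in C alone, and Tgfb1, Inhba and Inhbb are highest in M, where Inhba reaches 83.7.

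Sequences before the start of Inhba, Inhbb, Tgfb1 and Id4, the members with the largest folds above the cervical loop in maturation, and of 3 others discussed below, were read to see whether they share Smad motifs. RefSeq promoter windows (build GRCr8, not the build of the expression files) matched 52 of the 63 members. The 250 bases before each start are given 5′ to 3′ on the gene's strand. Capitals mark the short Smad-binding element CAGAC, the GC-rich Smad-binding element GGCGCC and the TATA box TATAAA, searched on both strands; no matches overlapped.
Inhba, chr17:53804509-53804758, minus strand: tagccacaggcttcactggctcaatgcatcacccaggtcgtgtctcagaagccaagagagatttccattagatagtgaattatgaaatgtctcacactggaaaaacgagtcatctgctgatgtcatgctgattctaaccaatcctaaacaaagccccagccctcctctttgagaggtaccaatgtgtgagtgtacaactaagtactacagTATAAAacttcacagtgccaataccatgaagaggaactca
Inhbb, chr13:33089374-33089623, minus strand: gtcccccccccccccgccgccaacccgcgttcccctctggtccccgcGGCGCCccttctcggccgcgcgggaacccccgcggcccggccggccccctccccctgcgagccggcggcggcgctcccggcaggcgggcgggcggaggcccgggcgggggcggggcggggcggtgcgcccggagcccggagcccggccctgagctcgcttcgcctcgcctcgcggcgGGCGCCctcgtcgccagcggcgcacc
Tgfb1, chr1:90324062-90324311, plus strand: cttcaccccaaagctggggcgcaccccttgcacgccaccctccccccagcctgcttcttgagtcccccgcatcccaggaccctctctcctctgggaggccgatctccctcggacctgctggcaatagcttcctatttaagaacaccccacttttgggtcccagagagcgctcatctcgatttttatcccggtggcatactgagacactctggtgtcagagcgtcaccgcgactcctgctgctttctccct
Id4, chr17:16598294-16598543, minus strand: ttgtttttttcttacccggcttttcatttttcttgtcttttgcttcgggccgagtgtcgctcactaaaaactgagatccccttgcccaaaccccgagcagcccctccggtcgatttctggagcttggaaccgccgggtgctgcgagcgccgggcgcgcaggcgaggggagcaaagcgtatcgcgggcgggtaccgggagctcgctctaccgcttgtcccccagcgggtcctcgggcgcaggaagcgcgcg
Tgfbr3, chr14:2634044-2634293, plus strand: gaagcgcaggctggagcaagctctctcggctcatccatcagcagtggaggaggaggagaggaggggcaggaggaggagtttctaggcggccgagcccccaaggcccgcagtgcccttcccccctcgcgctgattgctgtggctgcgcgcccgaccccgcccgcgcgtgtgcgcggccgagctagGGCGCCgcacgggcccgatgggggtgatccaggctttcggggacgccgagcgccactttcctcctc
Smad9, chr2:141106418-141106667, plus strand: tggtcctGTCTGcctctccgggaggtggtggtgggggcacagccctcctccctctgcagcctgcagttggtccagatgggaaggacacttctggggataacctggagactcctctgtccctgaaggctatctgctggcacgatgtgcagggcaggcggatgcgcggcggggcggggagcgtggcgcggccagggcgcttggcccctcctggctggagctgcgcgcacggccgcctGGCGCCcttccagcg
Grem1, chr3:120978320-120978569, minus strand: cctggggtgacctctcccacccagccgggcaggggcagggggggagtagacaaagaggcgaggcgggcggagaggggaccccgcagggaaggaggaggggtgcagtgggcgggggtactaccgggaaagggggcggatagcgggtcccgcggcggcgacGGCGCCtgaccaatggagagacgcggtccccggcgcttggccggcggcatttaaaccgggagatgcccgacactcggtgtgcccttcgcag

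These 4 maturation-high genes did not share a motif of this set. Inhba held a TATA box 40 to 35 bases before its start in a window of 43.6% G and C, Inhbb held GGCGCC at 2 places in a window of 86.8%, and Tgfb1 and Id4 held none of the 3. GGCGCC stood in the windows of 13 of 52 members (25%) and in 8.69% of all 33469 windows, and CAGAC in 14 members (26.9%) and 42.9% of all windows. TATAAA stood in 7 members (13.5%) and 12.9% of all windows. The member shares count a gene with a match in any of its windows, while the other shares count single windows. Base composition was not matched, so the shares cannot be read as more or fewer Smad sites among members. A match is a run of letters and says nothing about binding.

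Tgfbr2 and Tgfbr3 were highest in secretory cells. Of 13 receptor genes, 5 were higher and 4 lower in secretory than in cervical loop cells, 2 were higher and 4 lower in maturation than in secretory cells, and 4 were higher and 2 lower in maturation than in cervical loop cells. Among the 4 lower in secretory than in cervical loop cells, and the 2 higher in maturation than in secretory cells, was Bmpr1b. Its means of 0.27, 0.068 and 0.339 lie near the floor. Tgfbr2, the type II receptor that binds TGF-beta, had means of 47.2, 162 and 84.7. It was 3.43-fold higher in secretory than in cervical loop cells and 1.91-fold lower in maturation than in secretory cells (FDR = 0.00196 and 0.0177 in the authors' deposited table). Tgfbr3, the co-receptor betaglycan, had means of 18.7, 47.5 and 23.6. It was 2.55-fold higher in secretory than in cervical loop cells and 2.01-fold lower in maturation than in secretory cells (FDR = 0.00221 and 0.0048 in the authors' deposited table). Tgfbr1, the type I partner, had means of 73.0, 84.8 and 105 and passed only between maturation and cervical loop, 1.44-fold up (FDR = 0.0209 in the authors' deposited table).

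Activin receptors split. Acvr1b, a type I receptor for activins, had means of 24.9, 53.9 and 40.6. It was 2.16-fold higher in secretory than in cervical loop cells and 1.33-fold lower in maturation than in secretory cells (FDR = 0.000336 and 0.000699 in the authors' deposited table). The type II receptor gene Acvr2a, at 15.9, 10.8 and 13.6, was 1.47-fold lower in secretory than in cervical loop cells (FDR = 0.0222 in the authors' deposited table). Thus the stage with the highest activin ligand means, maturation, was not the stage with the highest mean of either receptor. Acvr1, a type I receptor used by BMPs, had means of 41.9, 32.9 and 29.9 and was lower in both ameloblast stages than in the cervical loop (FDR = 0.0118 for secretory and 0.00178 for maturation in the authors' deposited table).

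The BMP receptors Bmpr1a and Bmpr2 had small steps. Bmpr1a, a main type I receptor for BMPs, had means of 66.2, 69.5 and 72.7 and passed in no pair (FDR = 0.763, 0.672 and 0.405 for secretory against cervical loop, maturation against secretory and maturation against cervical loop in the authors' deposited table). Bmpr2, the type II receptor, had means of 85.9, 107 and 101, 1.24-fold higher in secretory and 1.17-fold higher in maturation than in cervical loop cells (FDR = 0.000919 and 0.00097 in the authors' deposited table). Bambi, a decoy receptor without a kinase, had means of 124, 215 and 102 and peaked in the secretory stage. It was 1.74-fold higher in secretory than in cervical loop cells and 2.1-fold lower in maturation than in secretory cells (FDR = 0.0238 and 0.00853 in the authors' deposited table). Acvrl1, a receptor of endothelium, had means of 7.26, 5.86 and 9.44 and stood 1.61-fold above secretory cells in maturation (FDR = 0.0136 in the authors' deposited table). Summed endothelial markers were also higher in maturation than in secretory cells, though only 2 of 6 passed. Their part in the Acvrl1 result was not tested.

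**Figure D3:**
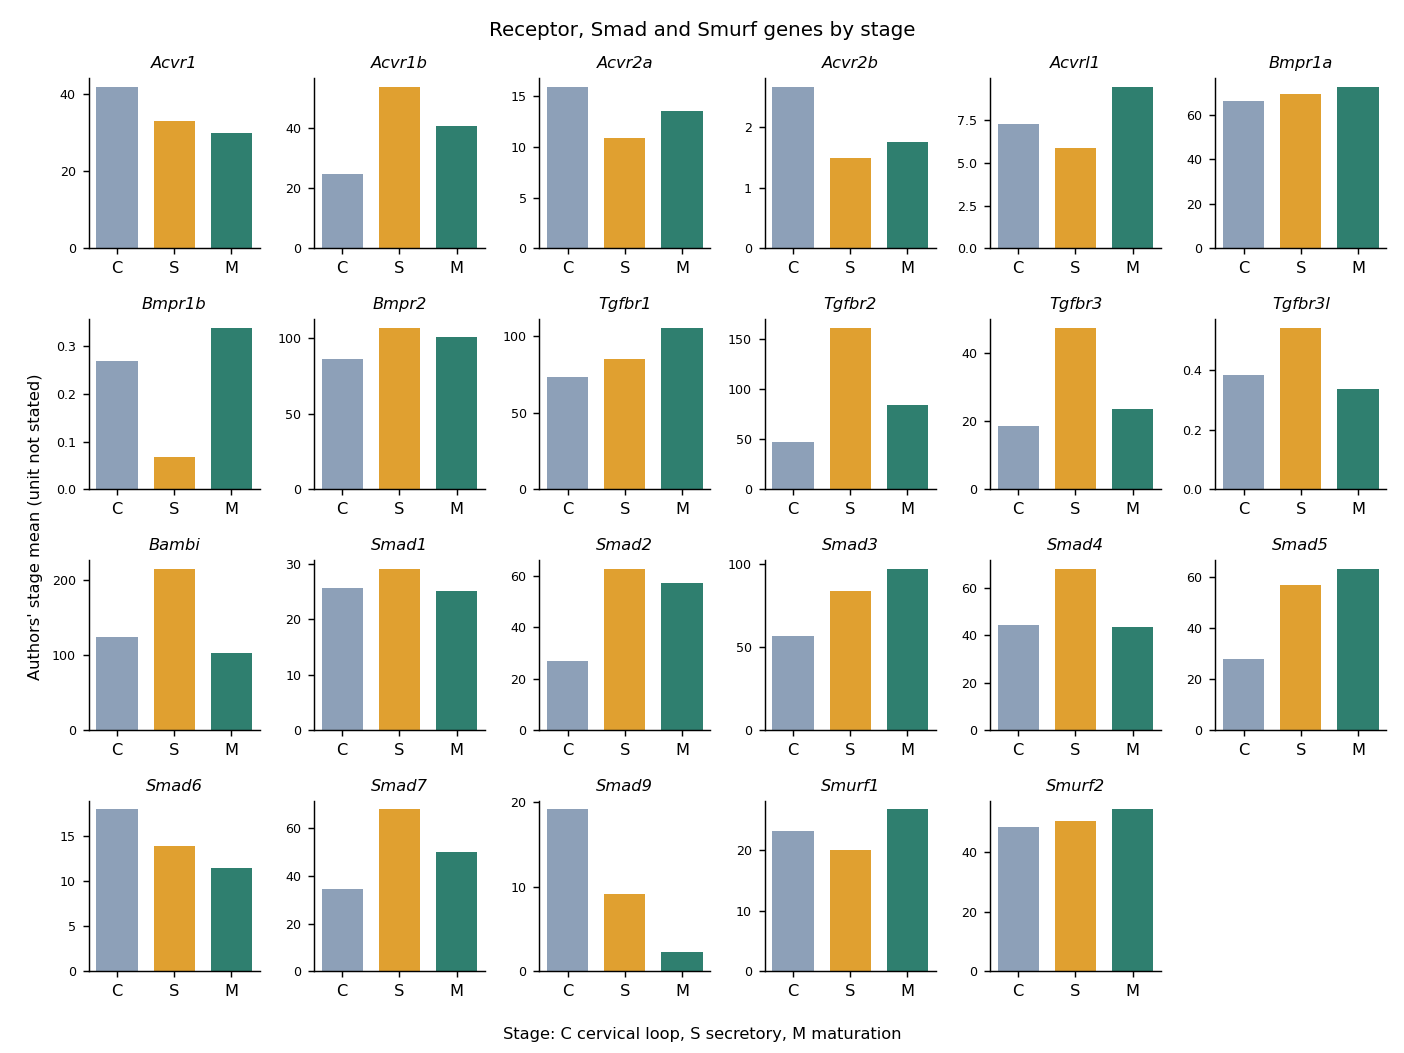
Authors' means (y axis, unit not stated, each panel on its own scale from 0) of 23 receptor, Smad and Smurf genes in cervical loop (C), secretory (S) and maturation (M) cells. Tgfbr2, Tgfbr3, Acvr1b, Bambi, Smad4 and Smad7 are tallest in S, and Smad9 is lower at each later stage.

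Smad2, Smad3 and Smad5 were higher in both ameloblast stages than in the cervical loop. Of 10 Smad and Smurf genes, 5 were higher and 1 lower in secretory than in cervical loop cells, 1 was higher and 3 lower in maturation than in secretory cells, and 4 were higher and 2 lower in maturation than in cervical loop cells. Smad2 had means of 26.9, 62.9 and 57.2, 2.34-fold higher in secretory and 2.13-fold higher in maturation than in cervical loop cells (FDR = 0.000424 and 0.000105 in the authors' deposited table). Smad5 had means of 28, 56.8 and 63.3, 2.03-fold and 2.26-fold higher in the same pairs (FDR = 0.000748 and 0.000185 in the authors' deposited table). Smad3, at 56.7, 84.1 and 97.6, stood 1.48-fold and 1.72-fold above the cervical loop (FDR = 0.00351 and 0.000565 in the authors' deposited table). None of the 3 passed between the ameloblast stages.

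Smad4 and Smad7 peaked in the secretory stage instead. Smad4, the shared partner, had means of 44.4, 68.0 and 43.6. It was 1.53-fold higher in secretory than in cervical loop cells and 1.56-fold lower in maturation than in secretory cells (FDR = 0.000949 and 0.00056 in the authors' deposited table). Smad7, the inhibitor that TGF-beta itself induces, had means of 34.3, 67.6 and 49.7, 1.97-fold higher in secretory than in cervical loop cells and 1.36-fold lower in maturation than in secretory cells (FDR = 0.000424 and 0.0016 in the authors' deposited table). Smad6, the inhibitor that acts mainly on BMP signals, had means of 18.0, 13.9 and 11.5 and was 1.56-fold lower in maturation than in cervical loop cells (FDR = 0.0135 in the authors' deposited table). So the 2 inhibitory Smads stood on opposite sides of their cervical loop level in maturation.

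Within the BMP Smads the order differed by gene. Smad9 had means of 19.1, 9.19 and 2.27. It was 2.08-fold lower in secretory than in cervical loop cells and 4.05-fold lower in maturation than in secretory cells (FDR = 0.0305 and 0.00118 in the authors' deposited table). Smad1, at 25.6, 29.1 and 25.1, passed in no pair, while Smad5 was higher in both ameloblast stages. Of the Smurf ubiquitin ligases, which degrade Smads and receptors, Smurf1 (23.2, 20.0 and 26.7) stood 1.34-fold above secretory cells in maturation (FDR = 0.0279 in the authors' deposited table), and Smurf2 (48.4, 50.5 and 54.3) passed in no pair.

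Grem1 was highest in the cervical loop. Among 9 antagonist and follistatin-family genes, 1 was higher and 2 lower in secretory than in cervical loop cells, 0 were higher and 2 lower in maturation than in secretory cells, and 2 were higher and 5 lower in maturation than in cervical loop cells. Grem1, which encodes gremlin, a BMP trap, had means of 32.0, 13.1 and 11.1, 2.44-fold and 2.88-fold lower in secretory and maturation than in cervical loop cells (FDR = 0.00636 and 0.00187 in the authors' deposited table). Summed odontoblast and bone markers were highest in the cervical loop too, though 0 of 7 passed for secretory and 2 of 7 for maturation cells. Summed mesenchyme markers were lowest in the cervical loop, at 9819, 10391 and 14003. The part of either set in the Grem1 result was not tested.

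Other antagonists had low means or small steps. Noggin (Nog), at 2.5, 1.8 and 1.25, and chordin (Chrd), at 2.78, 2.29 and 2.34, passed in no pair. Follistatin (Fst), which binds activins, had means of 0.677, 0.945 and 1.39 and was 2.05-fold higher in maturation than in cervical loop cells (FDR = 0.0178 in the authors' deposited table). Fstl3, a related activin binder, had means of 3.64, 4.91 and 5.33, 1.46-fold higher in the same pair (FDR = 0.0172 in the authors' deposited table). Neither passed between maturation and secretory cells. Fstl1, a secreted glycoprotein common in mesenchyme, had means of 269, 209 and 185 and was 1.46-fold lower in maturation than in cervical loop cells (FDR = 0.0109 in the authors' deposited table). Fstl4 peaked in the secretory stage at 0.877, 3.33 and 0.274, 12.1-fold lower in maturation than in secretory cells (FDR = 0.00252 in the authors' deposited table).

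Latent TGF-beta binding proteins, which store the ligand in matrix, moved apart. Of the 4 with the protease gene Bmp1, 2 were higher and 1 lower in secretory than in cervical loop cells, 1 was higher and 1 lower in maturation than in secretory cells, and 2 were higher and 1 lower in maturation than in cervical loop cells. Ltbp3, at 81.4, 108 and 116, was 1.32-fold and 1.43-fold higher in secretory and maturation than in cervical loop cells (FDR = 0.0254 and 0.00565 in the authors' deposited table). Ltbp2, which unlike the others does not bind latent TGF-beta, had means of 56.7, 37.5 and 25.9 and was 2.19-fold lower in maturation than in cervical loop cells (FDR = 0.01 in the authors' deposited table). Ltbp4 peaked in the secretory stage at 26.5, 37.9 and 22.9, and Ltbp1, at 45.5, 39.8 and 43.1, passed in no pair. Bmp1 is no BMP but a protease that cuts procollagen and chordin. Its means were 70.9, 49.7 and 98.7, lowest in the secretory stage, and it stood 1.99-fold above secretory cells in maturation (FDR = 0.00121 in the authors' deposited table).

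Id genes, which encode dimerising inhibitors of bHLH transcription factors and respond to BMPs in many cells, took different courses. In each pair of stages 1 of the 4 was higher and 1 lower. Id4 had means of 6.65, 13.1 and 137. Maturation cells stood 10.5-fold above secretory and 20.6-fold above cervical loop cells (FDR = 0.00109 and 0.000381 in the authors' deposited table), while secretory against cervical loop did not pass (FDR = 0.277 in the authors' deposited table). Id3, at 98.3, 47.5 and 57.2, was 2.07-fold and 1.72-fold lower in secretory and maturation than in cervical loop cells (FDR = 0.0067 and 0.0114 in the authors' deposited table). Id2 peaked in the secretory stage at 15.3, 23.4 and 13.1, 1.53-fold above the cervical loop (FDR = 0.0308 in the authors' deposited table). Id1, at 37.2, 30.8 and 27.4, passed in no pair (FDR = 0.0664 for maturation against cervical loop in the authors' deposited table). Only Id4 was highest in maturation.

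**Figure D4:**
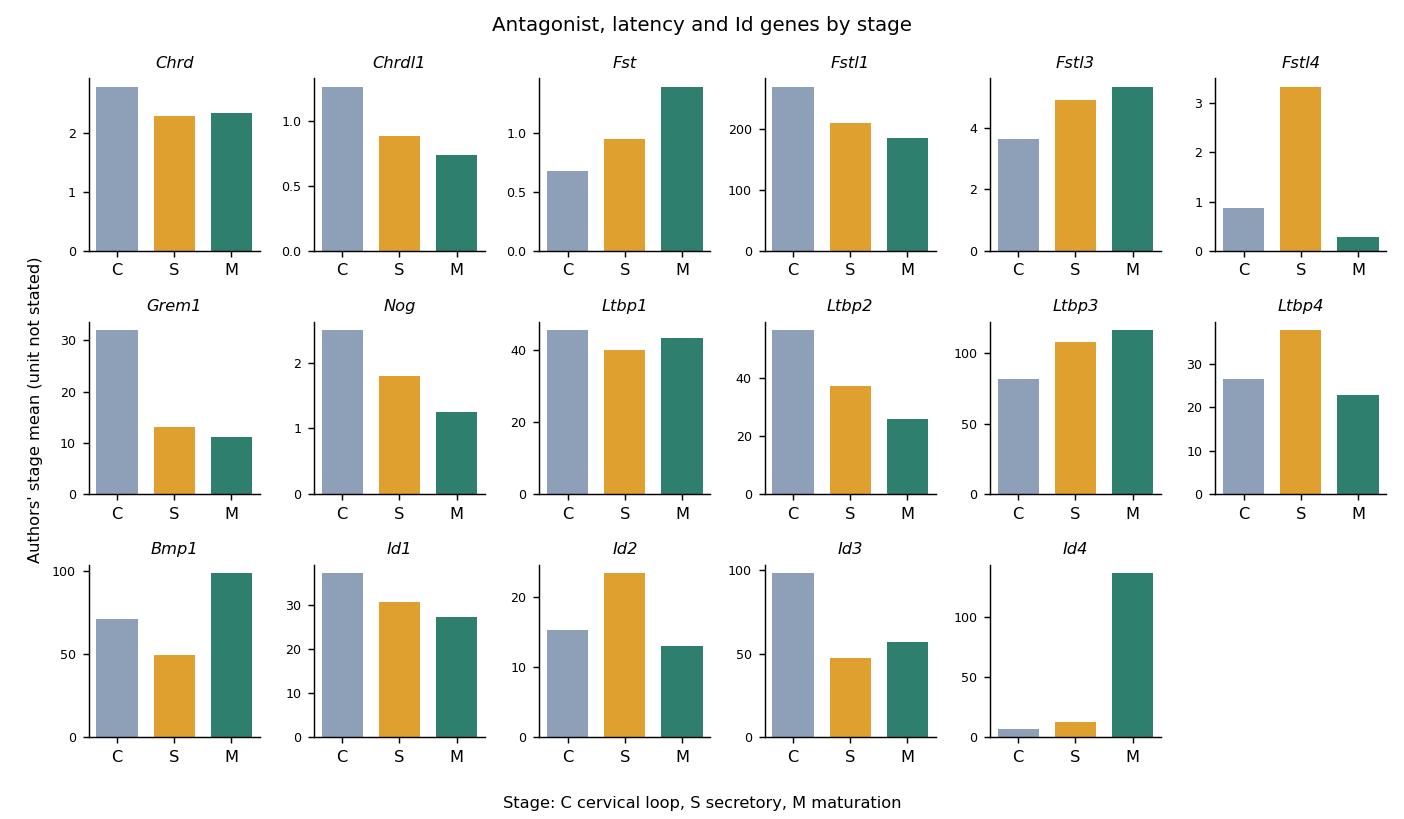
Authors' means (y axis, unit not stated, each panel on its own scale from 0) of antagonist, latency and Id genes in cervical loop (C), secretory (S) and maturation (M) cells. Grem1 and Id3 are tallest in C, Fstl4, Ltbp4 and Id2 in S, and Id4 and Bmp1 in M.

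The remaining members stood apart. A pair of genes found by symbol was placed in none of the roles above. Tgfb1i1, a focal adhesion protein (16.5, 11.9 and 10.4), was 1.59-fold lower in maturation than in cervical loop cells (FDR = 0.0146 in the authors' deposited table). Tgfbrap1, an endosomal tethering protein (14.0, 19.2 and 17.2), passed in no pair. In all 14 members stayed under a mean of 5 in every stage, between 0.139 and 3.05 in cervical loop, 0.068 and 3.33 in secretory and 0.0303 and 2.34 in maturation cells. Among them were Bmp15, an oocyte ligand (0.692, 0.916 and 2.22), and Gdf1 (3.05, 1.32 and 1.56), which in mammals shares a transcript with Cers1. Acvr2b had 2.67, 1.5 and 1.75 and Gdf10 0.139, 0.162 and 0.537. Bmp8b, Gdf7 and Bmpr1b reached 0.1 or less in 1 stage, so no fold is given against it.

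Transcript tables covered 13 members. A change in transcript make-up passed for 0 members in secretory against cervical loop and 0 in maturation against secretory cells in the authors' deposited tables, and for 1 in maturation against cervical loop cells. The background was 1.19%, 1.8% and 2.79% of genes, and at an unadjusted p under 0.05 the counts were 3, 1 and 1. The 1 gene was Fstl1 (FDR = 0.0159 in the authors' deposited table). Its minor transcript Fstl1-201 stood at 0.415 in maturation against 1.69 in cervical loop cells, and its main transcript Fstl1-202 at 186 against 265. Fstl1-201 made up 0.223% and 0.634% of the listed Fstl1 transcripts there, so the change concerns under 1% of them.

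The 3 Smad2 transcripts were all higher in secretory than in cervical loop cells. In secretory against cervical loop cells Smad2-201 stood at 29.2 and 13.2, Smad2-202 at 7.6 and 3.05, and Smad2-203 at 25.9 and 10.3, each higher (FDR = 0.00515, 0.00135 and 0.00187 in the authors' deposited table). For Bmp4, Bmp4-202 stood at 44.7 in secretory against 27.7 in cervical loop cells (FDR = 0.0316 in the authors' deposited table), while Bmp4-201 stood at 14.7 against 14.4 (FDR = 0.931 in the authors' deposited table). Bmp4 make-up did not pass (FDR = 0.357 in the authors' deposited table). Acvrl1-202 stood at 1.54 in secretory against 4.73 in cervical loop cells and Acvrl1-201 at 4.43 against 2.67, with p = 0.00457 for make-up but FDR = 0.156 in the authors' deposited table. Tgfb2-201 and Tgfb2-202 were both lower in maturation than in cervical loop cells, at 28.2 against 56.9 and 2.44 against 5.87 (FDR = 0.00441 and 0.00118 in the authors' deposited table).

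**Figure D5:**
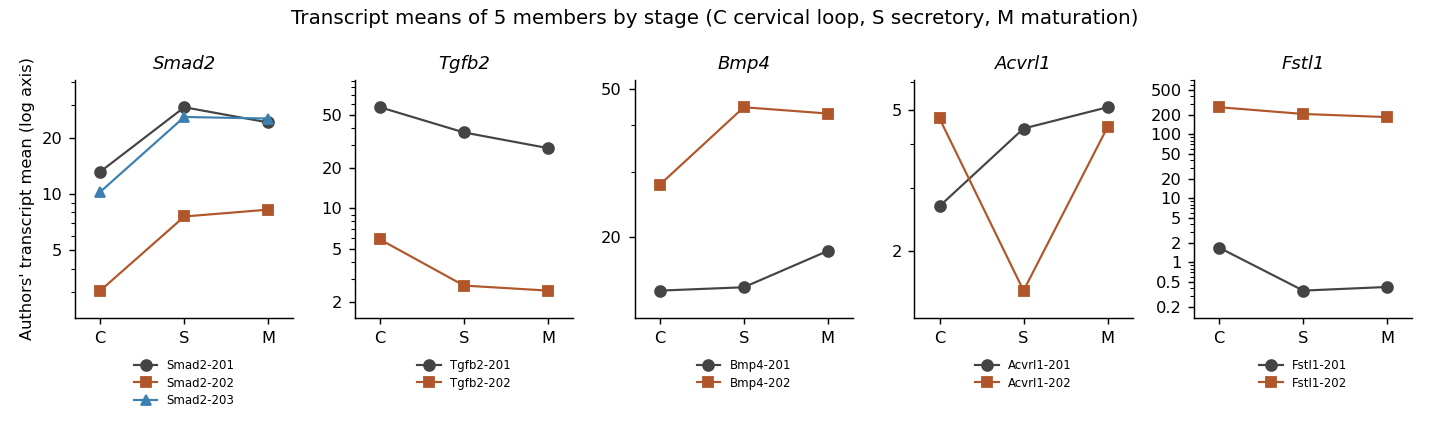
Authors' transcript means (y axis, log scale, unit not stated) of 5 members in cervical loop (C), secretory (S) and maturation (M) cells, 1 line per transcript. All 3 Smad2 lines are higher in S than in C, and the 2 Acvrl1 lines part in S; where the tables give more than 1 secretory mean, the value from the secretory against cervical loop table is drawn.

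Other genes that act on these ligands were read from a separate list of 74 measured genes. Over all of them, 15 were higher (20.3%) and 20 lower (27.0%) in secretory than in cervical loop cells, beside 16.5% and 25.2% of all genes. For maturation against secretory cells, 18 were higher (24.3%) and 21 lower (28.4%), beside 21.8% and 21.1% of all genes. For maturation against cervical loop cells, 20 were higher (27.0%) and 24 lower (32.4%), beside 24.1% and 33.7% of all genes. The counts by role below have the same background and rest on few genes each. Of 16 genes of ligand processing and latent TGF-beta activation, 6 were higher and 4 lower in secretory than in cervical loop cells, 3 higher and 5 lower in maturation than in secretory cells, and 7 higher and 5 lower in maturation than in cervical loop cells. Tll1, a protease of the Bmp1 family, stood at 5.8, 80.0 and 12.1 and was 13.8-fold higher in secretory than in cervical loop cells (FDR = 0.0005 in the authors' deposited table), where Bmp1 itself was lower. Integrin Itgb8, which can free TGF-beta, stood at 6.75, 2.0 and 1.02, 6.63-fold lower in maturation than in cervical loop cells (FDR = 0.000206 in the authors' deposited table). Itgb6, another integrin subunit that can free TGF-beta, named after its values were seen, went the other way at 33.5, 212 and 85.7. It was 6.33-fold higher in secretory and 2.56-fold higher in maturation than in cervical loop cells (FDR = 0.00104 and 0.00511 in the authors' deposited table). Fbn2, a fibrillin to which latent complexes attach, stood at 167, 89.9 and 71.5, and Tll2, another protease of the Bmp1 family, at 1.53 in cervical loop cells and at the floor in both ameloblast stages. Of 8 co-receptors and receptor partners, 2 were higher and 1 lower in secretory than in cervical loop cells, 2 higher and 1 lower in maturation than in secretory cells, and 3 higher and 1 lower in maturation than in cervical loop cells. Of 3 other ligand genes, 0 passed between secretory and cervical loop cells, while 2 were higher and 1 lower in maturation than in secretory cells, and 1 higher and 1 lower in maturation than in cervical loop cells. Endoglin (Eng), an endothelial co-receptor, stood at 32.1, 43.2 and 65.1, beside summed endothelial markers that were highest in maturation as well. Of those 6 markers, 2 passed as higher in maturation than in secretory cells and 4 than in cervical loop cells. Their part in the Eng result was not tested.

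Of 14 other extracellular antagonists, 3 were higher and 4 lower in secretory than in cervical loop cells, 5 higher and 3 lower in maturation than in secretory cells, and 5 higher and 2 lower in maturation than in cervical loop cells. Sostdc1 (ectodin), a BMP antagonist of teeth, had means of 93.0, 21.6 and 2.25, lower at each later stage. It was 4.31-fold lower in secretory than in cervical loop cells and 41.4-fold lower in maturation than in cervical loop cells (FDR = 0.0119 and 0.000207 in the authors' deposited table). Crim1, a transmembrane protein that binds BMPs, went the other way at 23.7, 46.0 and 109, and Twsg1, which binds BMPs with chordin, peaked in the secretory stage at 84.5, 206 and 102. Twsg1 was 2.44-fold higher in secretory than in cervical loop cells and 2.02-fold lower in maturation than in secretory cells (FDR = 0.00118 and 0.00191 in the authors' deposited table).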

How the data were processed

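Per the labels' protocols, 25000000 single-end reads of 75 bases were made per sample from RNA with an integrity number of at least 7. The submitters' processing notes list STAR 2.5.3a, Partek and the build rn6; annotation, strand, gene filter, normalisation and model: not given in the sources used here. Per the file headers the authors deposited a least-squares mean per stage (a score of unstated unit, not counts), a ratio of means, a p-value and a step-up FDR per gene and pair of stages, and the same per transcript. Without counts per library, counting intervals could not be computed. The p-values come from the authors' model, so the error they rest on, and whether stages were paired by rat, are not known here. That model may also test another quantity than the ratio of means.

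Folds and log2 ratios were computed from the deposited means, with none where a mean was 0.1 or less (Python 3.11.15, pandas 2.3.3, numpy 2.4.6). Benjamini-Hochberg adjustment of the deposited p-values over 16516 genes, tested on simulated data, equalled the deposited FDR within rounding; the threshold was 0.05. The members and lists were chosen with earlier results of these data known. Members reaching a mean of 5 in 1 stage are given with values. Full statistics were planned for folds of at least 2; smaller folds and low members named with values were chosen after these were seen. A member was called highest in a stage if it passed against both others. List examples came from those of smallest deposited p. Motifs were matched exactly in RefSeq windows. 1 item is not reported here, though the counts of members include it.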

Additional observations from a re-analysis of the deposited data

How the results depend on the processing

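No member that passed changed direction under another scaling or under centring on the median of all genes. These settings moved log2 ratios by up to 0.14. The smallest log2 ratio of a member that passed was 0.23 (Bmpr2, maturation against cervical loop), so no such change was possible. Among members that did not pass, up to 3 changed sign per pair and setting. A pseudocount of 1 cannot change a sign, and the stage lists held the members' means within 0.41%. None of these settings could therefore test the direction of a member that passed. Requiring also a 2-fold step, secretory against cervical loop kept 10 members higher and 9 lower, maturation against secretory 7 and 8, and maturation against cervical loop 11 and 11. At FDR under 0.01 the counts were 15 higher and 9 lower, 6 and 12, and 15 and 12, and the Fstl1 transcript call was lost, leaving 0. Under Holm adjustment they were 2 and 0, 0 and 0, and 3 and 0. Shares of all genes were not computed at these 3 settings, so these counts cannot be read against a background. Median log2 ratios of members lay near 0 and their sign depended on scaling: for secretory against cervical loop -0.066 when scaled without the 10 largest genes and 0.21 when centred on all genes, against 0.07 as deposited, and for maturation against cervical loop -0.17 and 0.086, against -0.03. Leaving out genes with means under 1 changed no count by over 1.5 times. No paired analysis was possible because each stage is 1 mean, and for the same reason no library could be left out.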

Other observations

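Partners and regulators of Smads were read from the same separate list. Of 19 Smad partners and regulators, 4 were higher (21.1%) and 5 lower (26.3%) in secretory than in cervical loop cells, beside 16.5% and 25.2% of all genes. For maturation against secretory cells, 1 was higher (5.3%) and 6 lower (31.6%), beside 21.8% and 21.1% of all genes. For maturation against cervical loop cells, 2 were higher (10.5%) and 9 lower (47.4%), beside 24.1% and 33.7% of all genes. The corepressor gene Tgif2 had means of 18.8, 13.4 and 5.86 in cervical loop, secretory and maturation cells, 3.21-fold lower in maturation than in cervical loop cells (FDR = 0.000205 in the authors' deposited table). Skil, a corepressor that TGF-beta induces, went the other way, with means of 26.6, 40.1 and 49.9, 1.88-fold higher in maturation than in cervical loop cells (FDR = 0.000669 in the authors' deposited table). Nedd4l, a ubiquitin ligase for activated Smads, peaked in the secretory stage at 27.2, 41.9 and 17.7.

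Among genes known elsewhere as targets of the pathway, those that passed were all lower in secretory than in cervical loop cells. In the other pairs they went both ways. Of 14, 0 were higher and 6 lower (42.9%) in secretory than in cervical loop cells, beside 16.5% and 25.2% of all genes. For maturation against secretory cells, 5 were higher (35.7%) and 5 lower (35.7%), beside 21.8% and 21.1% of all genes. For maturation against cervical loop cells, 2 were higher (14.3%) and 6 lower (42.9%), beside 24.1% and 33.7% of all genes. Tgfbi, named for its response to TGF-beta, was lowest in the secretory stage, with means of 117, 29.4 and 70.6. It stood 2.4-fold above secretory cells in maturation and 3.98-fold lower in secretory than in cervical loop cells (FDR = 0.00503 and 0.00152 in the authors' deposited table). Tsc22d1, whose transcription TGF-beta stimulates, had means of 158, 158 and 283 and stood 1.8-fold above secretory cells in maturation (FDR = 0.000421 in the authors' deposited table). The homeobox genes Dlx5 (30.3, 9.17 and 3.64) and Msx1 (35.2, 15.4 and 16.1) were highest in the cervical loop.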
